A study of Mus musculus with 2 samples.

Results

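Glycolysis splits glucose into pyruvate, and cells short of oxygen, or activated immune cells, draw on it for energy by turning the pyruvate into lactate. The set described here held 35 genes of this route and of the response to low oxygen, picked by symbol from a fixed list out of 32245 gene symbols in the deposited matrices. It covered 4 glucose and lactate transporters, 4 hexokinase and isomerase genes, 5 phosphofructokinase genes, 8 genes of the triose and lower steps, 3 genes of pyruvate fate, 3 of oxygen sensing and 8 targets of the hypoxia response. All 35 had UMIs, the molecular counts of droplet sequencing.

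In oxygen, prolyl hydroxylases mark the transcription factor subunit HIF-1alpha for destruction. Where oxygen is low the subunit lasts, and it switches on transporters, glycolytic enzymes and genes such as Vegfa. Neutrophils are known to live mainly on glycolysis, and they work in inflamed tissue where oxygen is scarce.

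The cells were immune cells that had entered the gingiva, the gum tissue, of C57BL/6 mice with experimental periodontitis, a disease in which inflammation destroys the tissue that holds the teeth. The library labelled Otud1-/- came from animals without the deubiquitinase gene Otud1 by their genotype label, and the other library from animals labelled WT. Each genotype had 1 library, made with the 3′ v3.1 droplet chemistry. How the allele was made, and the number, age and sex of the animals, are not given in the sources used here. With 1 library per genotype no difference between genotypes could be tested. Intervals given below are 95% intervals of counting error within 1 library or between 2 libraries, and they hold no variation between animals.

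The library labelled Otud1-/- had 8109 barcodes with 44083735 UMIs, and the WT library had 13267 barcodes with 44878537 UMIs. After filtering, 6486 cells with a median of 4137.5 UMIs were kept in the library labelled Otud1-/-, against 11414 cells with a median of 2086 UMIs in the WT library. The libraries shared 37 barcodes. Levels are given in CPM, the UMIs of a gene scaled to a fixed total of UMIs. Over all barcodes Otud1 itself reached 33.0 CPM (31.4 to 34.8) in the library labelled Otud1-/-, against 18.6 CPM (17.3 to 19.9) in the WT library. The Otud1 UMIs thus did not show the loss that the label names. Whether the allele leaves a counted transcript is not given in the sources used here. Cell makeup differed too, with B cells at 42.1% of kept cells labelled Otud1-/- and 17.2% of WT ones. Every direction below is therefore between the labelled libraries. In neutrophils alone Otud1 was not higher, with 9.41 CPM (6.30 to 13.5, 29 UMIs) in the library labelled Otud1-/- and 11.9 CPM (7.57 to 17.9, 23 UMIs) in the WT library. Xist, which is made from inactive X chromosomes, had 5 UMIs in kept cells of the library labelled Otud1-/- and 10595 in those of the WT library, while Y-linked genes had 8644 in the library labelled Otud1-/- and 4857 in the WT library, so female cells were common in the WT library and nearly absent from the other. Clusters were made without any of the 35 genes and named by marker genes, which gave 6 classes with at least 100 cells in both libraries. In the library labelled Otud1-/- these were 880 neutrophils, 454 monocytes/macrophages, 357 dendritic cells, 2729 B cells, 897 T cells and 217 NK cells. In the WT library they were 941 neutrophils, 2212 monocytes/macrophages, 1069 dendritic cells, 1959 B cells, 1911 T cells and 527 NK cells.

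The promoters of these genes were searched for the core of the HIF binding site because the set is defined partly by that factor. RefSeq windows of 250 bases before to 50 after the gene's start, on the GRCm38.p6 build, were matched for 32 of the 35 genes, Ero1l through its present symbol Ero1a, and gave 46 windows. ACGTG was present on either strand in 27 of the 46 windows (58.7%), against 6439 of all 32817 promoter windows (19.6%). GCGTG was present in 58.7% of the member windows, against 32.4% of all windows, and either motif in 82.6%, against 43.8%. At least 2 ACGTG matches occurred in 19.6% of the member windows and in 2.69% of all windows. Windows of the same gene can overlap, as some of Aldoa, Eno1 and Pfkm do, so the same site can be counted again. No share per gene was computed. The 3 stretches below are the 250 bases before the start of Pfkfb3, the gene with the highest ratio between the libraries in neutrophils, and of Ldha and Hk1, the members with the most matches in their whole windows. Capitals mark ACGTG or GCGTG read on either strand (CACGT or CACGC on the printed one), and where a match runs both ways, as in CACGTG, the capitals cover both.
Pfkfb3 (chr2:11502091-11502340, minus strand): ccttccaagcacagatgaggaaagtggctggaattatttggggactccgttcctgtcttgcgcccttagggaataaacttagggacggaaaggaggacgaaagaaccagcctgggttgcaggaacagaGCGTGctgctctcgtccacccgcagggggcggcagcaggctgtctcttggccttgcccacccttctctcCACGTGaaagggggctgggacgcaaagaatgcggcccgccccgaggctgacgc
Ldha (chr7:46845554-46845803, plus strand): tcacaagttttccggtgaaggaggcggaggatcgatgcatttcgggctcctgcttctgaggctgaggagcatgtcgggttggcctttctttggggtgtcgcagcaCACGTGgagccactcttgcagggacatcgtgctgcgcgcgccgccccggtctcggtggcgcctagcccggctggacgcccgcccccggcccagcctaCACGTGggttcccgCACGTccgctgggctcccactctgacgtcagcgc
Hk1 (chr10:62340422-62340671, minus strand): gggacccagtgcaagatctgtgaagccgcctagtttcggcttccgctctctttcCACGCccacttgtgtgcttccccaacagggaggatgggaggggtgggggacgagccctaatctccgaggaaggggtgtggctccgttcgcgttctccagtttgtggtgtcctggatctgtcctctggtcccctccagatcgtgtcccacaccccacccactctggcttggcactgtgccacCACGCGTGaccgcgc
A match of letters is a description of the window and not a measured binding site, and the libraries hold no binding data. Each of the 3 genes has 2 windows in the table, and the one with more matches is shown. The second window had 1 ACGTG match for Pfkfb3, 0 ACGTG and 2 GCGTG matches for Ldha and 0 matches of either kind for Hk1.

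The 35 genes together made up a larger share of the UMIs in neutrophils than in any of the other 5 compared classes, in both libraries. They took 0.525% of neutrophil UMIs in the library labelled Otud1-/- and 0.363% in the WT library. Monocytes/macrophages followed with 0.425% in the library labelled Otud1-/- and 0.302% in the WT library. In the library labelled Otud1-/- the share was 0.327% in dendritic, 0.323% in NK, 0.314% in T and 0.178% in B cells. In the WT library it was 0.285% in dendritic, 0.253% in NK, 0.290% in T and 0.157% in B cells, the lowest of the 6 in either library. Without Gapdh, the share in neutrophils was 0.443% in the library labelled Otud1-/- and 0.295% in the WT library. The ranking holds for whole classes and not for each cluster. In the WT library the share was 0.454% in neutrophil cluster 7, 0.325% in cluster 9 and 0.322% in cluster 25. WT T cell clusters ranged from 0.187% in cluster 3 to 0.412% in cluster 22, with cluster 6 next at 0.365%. Cluster 22 was led by histone genes such as Hist1h3b. It had 0 T cell markers among its top 10 genes and 3 among its top 50. WT monocyte/macrophage clusters ranged from 0.283% in cluster 12 to 0.338% in cluster 4. In both libraries 11 of the 35 genes had their highest level among the 6 classes in neutrophils: the transporters Slc2a1, Slc2a3 and Slc16a3, the hexokinase Hk3, the regulators Pfkfb3 and Pfkfb4, Pkm, Hif1a, Egln3, Bnip3 and Ero1l. For some of these genes the log2 ratio of neutrophils over the next class had a counting interval that spanned parity. In the WT library these were Hif1a (-0.03 to 0.28), Hk3 (-0.12 to 0.78), Egln3 (-1.05 to 1.35) and Ero1l (-0.01 to 0.76). Egln3 spanned it in the library labelled Otud1-/- too (-0.28 to 1.46). The class with the highest level was the same in both libraries for 24 of the 35 genes. B cells had the lowest level for 18 genes in the library labelled Otud1-/- and 19 in the WT library.

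**Figure D1:**
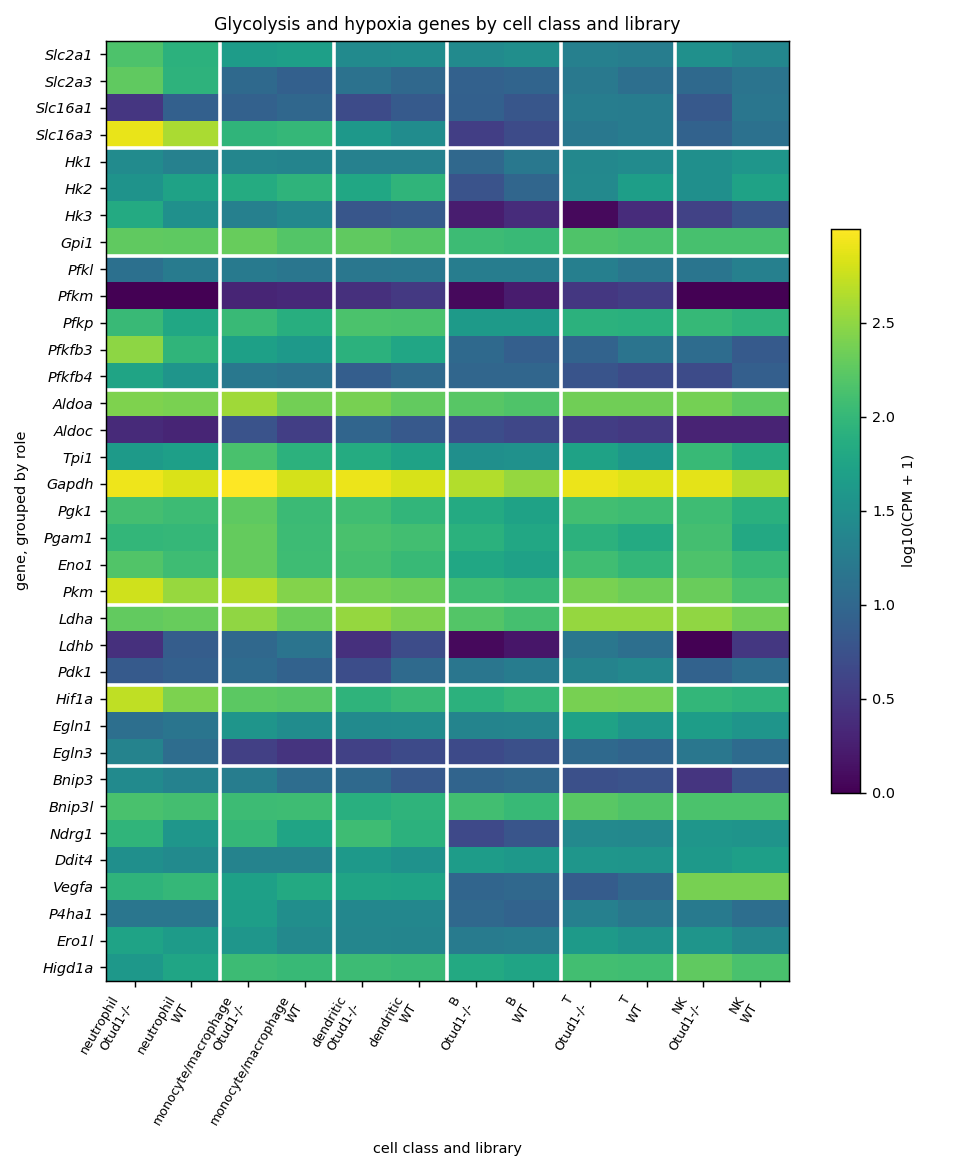
Level of each of the 35 genes (rows, grouped by role with white lines) in 6 cell classes, 2 columns per class, the library labelled Otud1-/- to the left of the WT library; colour is log10(CPM + 1). Slc2a1, Slc2a3, Slc16a3, Pfkfb3 and Hif1a are brightest in the neutrophil columns, Vegfa in the NK columns, and B cell columns are dark for many rows.

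Pfkfb3 makes the enzyme that sets the level of fructose 2,6-bisphosphate, the activator of phosphofructokinase, and it marked the set. In neutrophils it reached 306 CPM (287 to 326, 944 UMIs) in the library labelled Otud1-/- and 89.9 CPM (77.0 to 104, 173 UMIs) in the WT library. The log2 ratio was 1.76 (1.53 to 2.01), or 3.39-fold. When cells were thinned to 1000 UMIs each, 25.1% of neutrophils (22.2% to 28.2%) held a Pfkfb3 UMI in the library labelled Otud1-/-, against 7.24% (5.51% to 9.29%) in the WT library, and without thinning the shares were 48.6% in the library labelled Otud1-/- and 13.6% in the WT library. Thinning left out 68 shallower neutrophils labelled Otud1-/- and 167 WT neutrophils. In NK cells, which here stand for a class with little of the gene, the thinned shares were 0.472% in the library labelled Otud1-/- and 0.243% in the WT library. Dendritic cells had 82.7 CPM in the library labelled Otud1-/- and 58.1 CPM in the WT library, and monocytes/macrophages had 49.9 CPM against 40.0 CPM. NK, B and T cells had the lowest levels, 10.6, 9.62 and 8.09 CPM in the library labelled Otud1-/- and 6.10, 7.10 and 13.1 CPM in the WT library. Pfkfb3 intervals of these 3 classes overlapped in the library labelled Otud1-/-, where NK cells spanned 5.30 to 19.0 CPM.

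In neutrophils 26 of the 35 genes had a mean of at least 20 CPM and were compared. At least 1.5-fold higher in the library labelled Otud1-/- were 10 of the 26 (38.5%), against 17.5% of the 4217 genes measured at that level in neutrophils. Only Hk2 was at least 1.5-fold lower (3.85% of the 26), where 33.3% of those genes were. The median log2 ratio was 0.32 over the 26 genes and -0.17 over all genes compared. TMM factors, an alternative to scaling by total UMIs, moved all neutrophil log2 ratios up by 0.59, and median-of-ratios factors by 0.68. The share of all neutrophil genes past 1.5-fold higher was then 42.3% with TMM and 46.7% with median of ratios. The share past 1.5-fold lower was 17.9% with TMM and 16.2% with median of ratios, so neither set of factors centred the compared genes. With these factors 20 (TMM) and 22 (median of ratios) of the 26 genes passed 1.5-fold higher.

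All 3 compared transporters were higher in neutrophils of the library labelled Otud1-/-. Slc16a3, which exports lactate, had 802 CPM (771 to 834) in the library labelled Otud1-/- and 412 CPM (384 to 442) in the WT library, a log2 ratio of 0.96 (0.85 to 1.08). Slc2a3, a high-affinity glucose transporter, had 186 CPM (171 to 202) in the library labelled Otud1-/- and 86.8 CPM (74.1 to 101) in the WT library, a log2 ratio of 1.09 (0.85 to 1.36). Slc2a1, the widely used glucose transporter, had 143 CPM against 82.6 CPM in the WT library, a log2 ratio of 0.79 (0.53 to 1.07). Slc16a1, the other lactate and pyruvate carrier of the set, had 6 UMIs in the library labelled Otud1-/- and 14 in the WT library and was not compared.

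The hexokinases, which trap glucose in the cell by phosphorylation, went different ways. Hk3, the isoform typical of myeloid cells, had 67.1 CPM (58.3 to 76.9) in the library labelled Otud1-/- and 30.7 CPM (23.3 to 39.5) in the WT library, a log2 ratio of 1.12 (0.71 to 1.57). Hk2, the inducible isoform, had 33.7 CPM (27.6 to 40.9) in the library labelled Otud1-/- and 52.5 CPM (42.7 to 63.7) in the WT library, a log2 ratio of -0.63 (-1.05 to -0.23) that became 0.050 with median-of-ratios factors. The log2 ratios of Hk1 (0.44) and of the isomerase Gpi1 (0.05) lay within 1.5-fold.

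All 3 compared genes of the phosphofructokinase step were higher. Beside Pfkfb3, the phosphofructokinase gene Pfkp had 106 CPM in neutrophils labelled Otud1-/- and 60.8 CPM in WT neutrophils, a log2 ratio of 0.80 (0.49 to 1.12). Pfkfb4, a relative of Pfkfb3, had 55.8 CPM in neutrophils labelled Otud1-/- and 35.8 CPM in WT neutrophils, a log2 ratio of 0.63 (0.23 to 1.06). The isoform genes Pfkl, with 36 UMIs in cells labelled Otud1-/- and 32 in WT cells, and Pfkm were below the level needed. Pfkm had 0 UMIs in both libraries, which allows up to 0.973 CPM in neutrophils labelled Otud1-/- and 1.56 CPM in WT neutrophils (3 counts of each class total).

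Of 7 compared genes of the triose and lower steps, Pkm alone passed 1.5-fold. Pkm, the pyruvate kinase gene, had 601 CPM in neutrophils labelled Otud1-/- and 345 CPM in WT neutrophils, a log2 ratio of 0.80 (0.67 to 0.93). Log2 ratios were 0.40 for the enolase Eno1, 0.29 for Gapdh, 0.16 for Pgk1, 0.08 for the aldolase Aldoa, -0.02 for the mutase Pgam1 and -0.21 for the triose isomerase Tpi1. Ldha, the lactate dehydrogenase subunit that favours lactate, had 189 CPM against 198 CPM in WT neutrophils, a log2 ratio of -0.07 (-0.26 to 0.12). The negative ratios of Pgam1, Tpi1 and Ldha, and of Vegfa and Higd1a below, became positive with either set of scaling factors. The aldolase Aldoc, the dehydrogenase subunit Ldhb and the kinase Pdk1, which restrains pyruvate entry into mitochondria, were too low to compare.

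Hif1a, the gene of the oxygen-regulated HIF subunit, had 520 CPM (495 to 546) in neutrophils labelled Otud1-/- and 254 CPM (233 to 278) in WT neutrophils, a log2 ratio of 1.03 (0.88 to 1.18). The prolyl hydroxylase genes Egln1 and Egln3 were below the level needed, with 35 and 65 UMIs in neutrophils labelled Otud1-/- and 26 and 21 UMIs in WT neutrophils. Of 7 compared hypoxia targets only Ndrg1 passed 1.5-fold, with 90.5 CPM in neutrophils labelled Otud1-/- and 36.9 CPM in WT neutrophils, a log2 ratio of 1.28 (0.91 to 1.69). The WT level was below 10% of the Ndrg1 level in WT mast cells/basophils, and the part of free RNA in it was not tested. Vegfa, the vessel growth factor, had 87.6 CPM in neutrophils labelled Otud1-/- and 98.7 CPM in WT neutrophils, a log2 ratio of -0.17 (-0.45 to 0.10). The mitophagy receptor genes Bnip3 (0.35) and Bnip3l (0.09), the oxidase gene Ero1l (0.29), the growth inhibitor Ddit4 (0.17) and the mitochondrial gene Higd1a (-0.55) had log2 ratios within 1.5-fold, and the collagen prolyl hydroxylase subunit P4ha1 was too low.

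**Figure D2:**
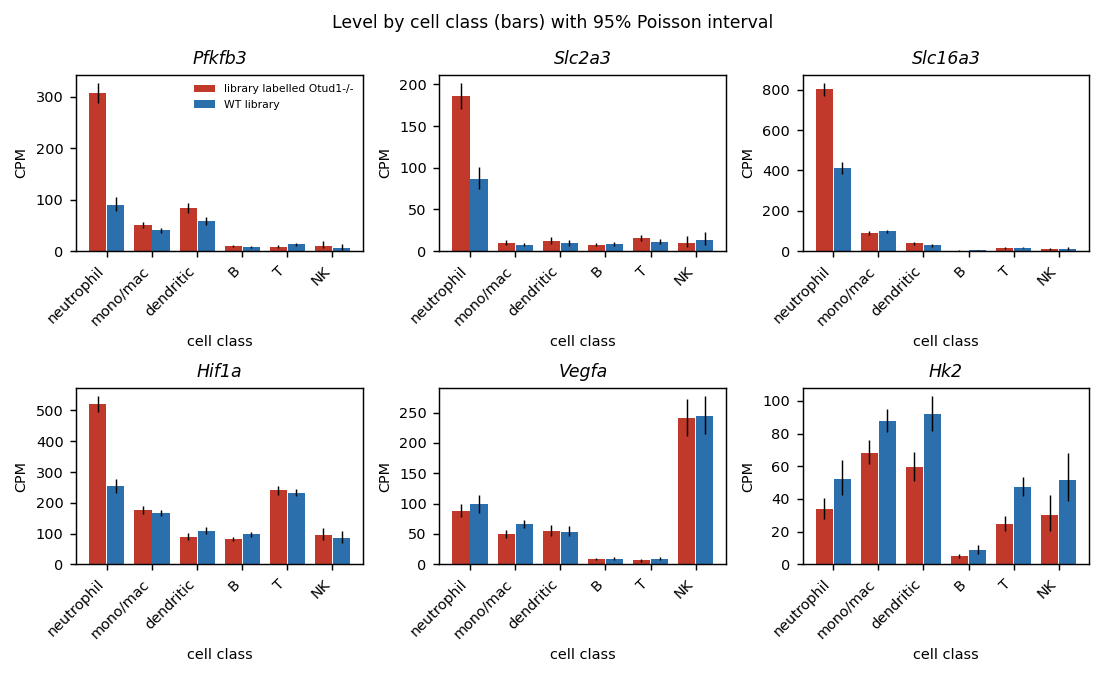
Level in CPM of 6 genes (panels) in 6 cell classes, red bars for the library labelled Otud1-/- and blue bars to their right for the WT library; lines are 95% Poisson intervals of counting error. Pfkfb3, Slc2a3, Slc16a3 and Hif1a are tallest in neutrophils and taller there in red, Vegfa is tallest in NK cells at similar height in both, and the blue bar is the taller for Hk2 in every class.

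The neutrophil class was made of different clusters in the 2 libraries. Cluster 7, led by Stfa2l1 and Cxcr2, held 786 of the 880 neutrophils labelled Otud1-/- and 163 of the 941 WT neutrophils. Cluster 9, led by Retnlg and G0s2, held 94 neutrophils labelled Otud1-/- and 682 WT neutrophils, and cluster 25, led by the granule genes Ngp, Camp and Ltf, held 0 cells labelled Otud1-/- and 96 WT cells. The WT neutrophils also carried more RNA of other cells: the 14 B cell marker genes summed to 409 CPM in neutrophils labelled Otud1-/- and 2204 CPM in WT neutrophils. That was 10.4% of their level over the whole library labelled Otud1-/- and 60.3% of their level over the whole WT library. The 16 neutrophil marker genes summed to 125579 CPM in the class labelled Otud1-/- and 74628 CPM in the WT class. In cluster 7 these sums were closer, with 127055 CPM in cells labelled Otud1-/- and 123505 CPM in WT cells for the neutrophil markers and 382 CPM against 554 CPM for the B cell markers. The part of cluster makeup and free RNA in the class ratios was not tested beyond the values within clusters.

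Within cluster 7 fewer genes passed. Of 26 compared, 5 were at least 1.5-fold higher in cells labelled Otud1-/- (background 6.71%) and 2 lower (background 12.1%), with a median log2 ratio of 0.19 against -0.03 over all genes. Pfkfb3 had 313 CPM (293 to 333) in cells labelled Otud1-/- and 140 CPM (111 to 175) in WT cells, a log2 ratio of 1.15 (0.82 to 1.5). Ndrg1 (1.01), Pfkp (0.67), Ddit4 (0.65, from 90 UMIs in cells labelled Otud1-/- and 11 in WT cells) and Hif1a (0.59) were the other 4 with higher values. Hif1a had 523 CPM in cells labelled Otud1-/- and 347 CPM in WT cells of this cluster, 1.505-fold. The log2 ratios of Slc2a3 (0.30), Slc2a1 (0.19), Slc16a3 (0.15), Hk3 (0.34), Pkm (0.36) and Pfkfb4 (0.19) lay within 1.5-fold in cluster 7, although all 6 passed it over the class. Hk2 was lower, with 32.2 CPM in cells labelled Otud1-/- and 61.4 CPM in WT cells (log2 ratio -0.92), and so was Vegfa, with 87.7 CPM against 137 CPM in WT cells (log2 ratio -0.64).

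In cluster 9, Pfkfb3 had 161 CPM (99.7 to 246, 21 UMIs) in cells labelled Otud1-/- and 73.9 CPM (58.7 to 91.9, 81 UMIs) in WT cells, a log2 ratio of 1.12. Here 11 of 26 genes were at least 1.5-fold higher (background 22.7%) and 1 was lower (background 25.7%), from few cells labelled Otud1-/-. Hk2 had a log2 ratio of 0.71 and Hk3 of -0.043 in cluster 9, the other side of parity from the class. In neutrophils of 2000 to 5000 UMIs, 511 cells labelled Otud1-/- and 272 WT cells, the log2 ratio was 1.78 for Pfkfb3, 1.64 for Slc2a3, 0.95 for Slc16a3, 0.98 for Hif1a and -0.70 for Hk2. Pfkfb3 was thus above 1.5-fold higher over the class, in each cluster that both libraries filled, and at matched depth.

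**Figure D3:**
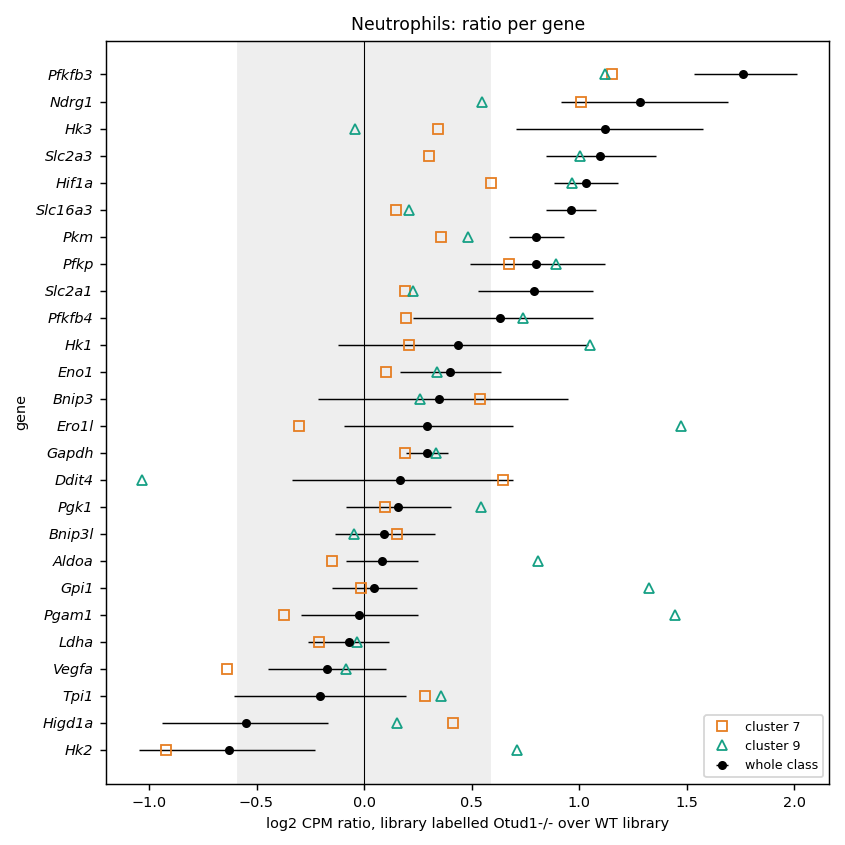
Log2 CPM ratio in neutrophils, library labelled Otud1-/- over WT library, for the 26 compared genes (rows, sorted); black points with 95% counting intervals are the whole class, squares cluster 7, triangles cluster 9, and the grey band is 1.5-fold either way. Pfkfb3 lies right of the band in all 3, while the squares of Slc16a3, Slc2a1 and Slc2a3 lie inside it.

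In monocytes/macrophages, past 1.5-fold, 9 of 25 genes were higher in the library labelled Otud1-/- (36%, background 3.5%) and 0 were lower (background 3.29%), with a median log2 ratio of 0.33 against 0.02 over all genes. All 7 compared genes of the triose and lower steps were among the 9. Gapdh had 997 CPM in cells labelled Otud1-/- and 638 CPM in WT cells, a log2 ratio of 0.64 (0.58 to 0.70). Pkm had 472 CPM in cells labelled Otud1-/- and 272 CPM in WT cells (0.79, 0.70 to 0.88), and Eno1 had 196 CPM against 114 CPM in WT cells (0.77, 0.64 to 0.92). Log2 ratios were 0.76 for Pgam1, 0.73 for Tpi1, 0.70 for Pgk1 and 0.67 for Aldoa. P4ha1 (0.66) and Ndrg1 (0.83) were the other 2, and the Ndrg1 level in WT cells was again below 10% of that in WT mast cells/basophils. Ldha, at 0.58, was just inside 1.5-fold. Slc2a1 (-0.09), Slc16a3 (-0.12), Hif1a (0.08) and Pfkfb3 (0.32) had log2 ratios inside 1.5-fold. Hk2 (-0.36) and Vegfa (-0.41) were below parity and inside 1.5-fold.

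The macrophage result differed by cluster and by depth. Cluster 12, led by Retnla, Pf4 and Mrc1, held 173 cells labelled Otud1-/- and 474 WT cells, and 11 of 22 genes were at least 1.5-fold higher there (background 7.01%) with 0 lower (background 4.96%). In it Eno1 had 219 CPM in cells labelled Otud1-/- and 103 CPM in WT cells (1.09), Pkm 457 CPM against 214 CPM in WT cells (1.09) and Gapdh 1111 CPM against 597 CPM in WT cells (0.90). Ldha (0.74), Slc16a3 (0.89), Vegfa (0.88) and Ero1l (0.95) were higher in cluster 12 as well. In cluster 4, led by Vcan and F13a1, 2 of 25 genes were higher (background 3.94%) and 3 lower (background 8.52%). The higher genes in cluster 4 were Pkm (0.68) and Ndrg1 (0.67), and the lower ones Hk2 (-0.71), Hk3 (-0.72) and Vegfa (-0.77). In cluster 5, led by C1qa and Ms4a7, 3 of 23 were higher (background 5.27%) and 3 lower (background 10.1%), and the lower genes were Hk2 (-0.80), Vegfa (-0.70) and Slc2a1 (-0.61). Gapdh log2 ratios were 0.44 in cluster 4 and 0.38 in cluster 5. Cluster 4 held 209 cells labelled Otud1-/- and 834 WT cells, and cluster 5 held 72 cells labelled Otud1-/- and 904 WT cells. The class ratios thus compared unlike mixtures of clusters, and the part of cluster makeup in them was not tested. Cells of the class had a median of 9027 UMIs in the library labelled Otud1-/- and 2088.5 in the WT library. Cells of 2000 to 5000 UMIs numbered 51 labelled Otud1-/- and 917 WT. Log2 ratios of Gapdh (0.11, -0.16 to 0.36), Aldoa (0.18, -0.26 to 0.58), Pgam1 (0.07, -0.59 to 0.67) and Eno1 (-0.16, -0.91 to 0.51) were inside 1.5-fold there. Those of Pkm (1.05, 0.73 to 1.35), Tpi1 (1.06, 0.47 to 1.62) and Pgk1 (0.60, 0.03 to 1.13) were beyond it. Intervals of Pgam1, Eno1, Tpi1 and Pgk1 crossed a 1.5-fold limit, so the side of these genes is not firm. In those cells 19.8% of all genes were at least 1.5-fold higher. Of the 23 genes of the set compared there, 6 were higher and 1 lower, and 13.2% of all genes were lower. By point value alone, 4 of the 7 lower-step genes were inside 1.5-fold in these cells. The part of depth in the class result was not tested further. Marker RNA of other cells also differed in the class, with 3459 CPM of neutrophil markers and 1023 CPM of B cell markers in cells labelled Otud1-/-, against 2392 CPM and 1591 CPM in WT cells.

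**Figure D4:**
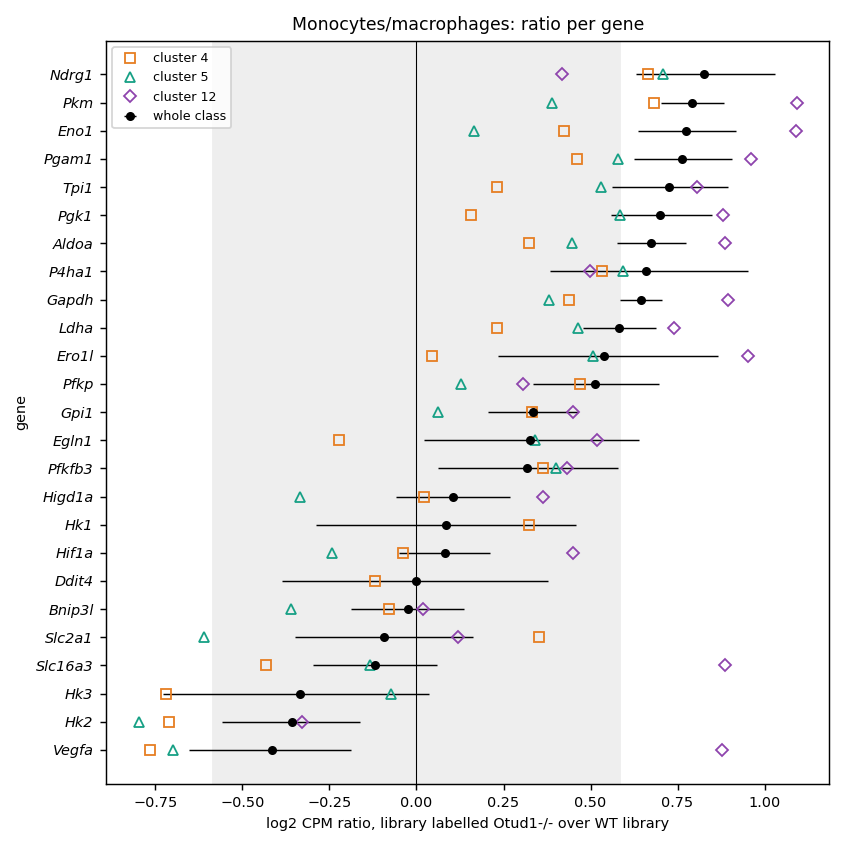
Log2 CPM ratio in monocytes/macrophages, library labelled Otud1-/- over WT library, for the 25 compared genes (rows, sorted); black points with 95% counting intervals are the whole class, squares cluster 4, triangles cluster 5 and diamonds cluster 12, with 1.5-fold as a grey band. The diamonds of the lower glycolytic genes lie right of the band, and the squares and triangles of Hk2 and Vegfa lie left of it.

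The other 4 classes held few differences past 1.5-fold. In dendritic cells 0 of 23 genes were higher (background 2.15%) and Hk2 alone was lower (background 7.95%), with 59.4 CPM in cells labelled Otud1-/- and 91.9 CPM in WT cells, a log2 ratio of -0.63 (-0.90 to -0.36). Cluster 2 held 318 of the 357 dendritic cells labelled Otud1-/- and 898 of the 1069 WT ones, and there 1 of 24 genes was higher (background 2.35%) and 1, Hk2 (-0.64), lower (background 8.86%). The higher gene was Pfkfb3, with 66.3 CPM (57.1 to 76.5) in cells labelled Otud1-/- and 34.1 CPM (27.6 to 41.6) in WT cells of cluster 2, a log2 ratio of 0.95 (0.60 to 1.33). In B cells 0 of 16 were higher (background 0.723%) and 0 lower (background 2.11%), and Gapdh, with 444 CPM against 331 CPM in WT cells, had the highest ratio (0.42). In T cells 0 of 20 were higher (background 0.909%) and Hk2 alone was lower (background 3.13%), with 24.9 CPM in cells labelled Otud1-/- and 47.5 CPM in WT cells, a log2 ratio of -0.92 (-1.26 to -0.62). In NK cells 2 of 21 were higher (background 6.13%) and 1 lower (background 9.82%). Pgam1 had 125 CPM in NK cells labelled Otud1-/- and 64.0 CPM in WT NK cells (0.95, 0.51 to 1.42), and Gapdh had 742 CPM against 473 CPM in WT NK cells (0.65, 0.48 to 0.82). Hk2 had 29.9 CPM in NK cells labelled Otud1-/- and 51.8 CPM in WT NK cells (-0.78, -1.49 to -0.12). Median UMIs were 4176 in NK cells labelled Otud1-/- and 1357 in WT NK cells, and B cell markers summed to 493 CPM in NK cells labelled Otud1-/- and 1699 CPM in WT NK cells. The part of that free RNA in these ratios was not tested. Among NK cells of 2000 to 5000 UMIs the log2 ratio of Gapdh was 0.21 (-0.09 to 0.51), inside 1.5-fold, and that of Pgam1 was 0.67 (-0.12 to 1.51). The Hk2 log2 ratio at this depth was -0.42 (-0.92 to 0.06) in T cells, inside 1.5-fold. It was 0.27 (-1.07 to 1.68) in NK cells, from 13 UMIs in cells labelled Otud1-/- and 9 in WT cells. In dendritic cells it was 0.48 (-0.62 to 1.43), from 10 UMIs in cells labelled Otud1-/- and 92 in WT cells. These intervals spanned parity, so no direction of Hk2 can be read from them. Pfkfb3 in dendritic cells of this depth had a log2 ratio of 1.31 (0.29 to 2.23) from 12 UMIs in the 27 cells labelled Otud1-/- and 62 UMIs in the 388 WT cells.

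Hk2 levels differed widely among the clusters of the WT library. Hk2 reached 620 CPM (519 to 733) in cluster 24, an unnamed cluster led by Il22 with 128 WT cells and 7 cells labelled Otud1-/-, and 50% of those WT cells held an Hk2 UMI. Vegfa had 344 CPM (271 to 431) in the same WT cells. In cluster 14, a T cell cluster with Trdc and Il17a among its leading genes, Hk2 had 136 CPM (106 to 173) in cells labelled Otud1-/- and 274 CPM (237 to 316) in WT cells. Cluster 14 held 102 of the 897 T cells labelled Otud1-/- and 323 of the 1911 WT T cells, so the class values above mix levels and cluster shares. In cluster 23, T cells led by Gzmk and Cd8a with 88 cells labelled Otud1-/- and 50 WT cells, 6 of 19 genes were higher (background 19.2%) and 1 lower (background 18.7%), and Slc2a1 rested on 18 UMIs in cells labelled Otud1-/- and 2 in WT cells. In cluster 3, T cells led by Lef1 and Tcf7, Hif1a had 110 CPM in cells of either library, and in cluster 6, T cells led by Ctla4 and Ikzf2, it had 434 CPM (400 to 470) in cells labelled Otud1-/- and 361 CPM (336 to 389) in WT cells.

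Vegfa was highest in NK cells among the 6 classes, with 240 CPM (212 to 272) in the library labelled Otud1-/- and 244 CPM (214 to 277) in the WT library. A Vegfa UMI was present in 53.0% of NK cells labelled Otud1-/- and 25.6% of WT NK cells, but after thinning to 1000 UMIs in 16.5% (11.8% to 22.2%) of those labelled Otud1-/- and 18.5% (14.9% to 22.6%) of WT ones. The thinned share in B cells was 0.643% in the library labelled Otud1-/- and 1.04% in the WT library. Higd1a and Hk1 were also highest in NK cells in both libraries, and Pfkp, Aldoc and Ndrg1 in dendritic cells. Log2 ratios over the next class spanned parity for Hk1 (-0.49 to 0.76 in the library labelled Otud1-/-, -0.11 to 0.99 in WT). They also did for Aldoc (-0.06 to 1.65 and -0.21 to 1.79 in the same order) and for WT Higd1a (-0.08 to 0.46). Aldoc had only 8.53 CPM in dendritic cells labelled Otud1-/- and 5.84 CPM in WT ones. Among the smaller groups, Ndrg1 reached 715 CPM (621 to 818) in the 153 WT mast cells/basophils, against 160 CPM (125 to 203) in cluster 19, WT dendritic cells led by Fscn1 and Ccl22. Pfkfb3 had 213 CPM (172 to 261) in those cluster 19 cells of the WT library, more than the 89.9 CPM of WT neutrophils. Cluster 17, unnamed and led by Gbp2, Cfb and Cxcl9, held 194 cells labelled Otud1-/- and 32 WT cells. The 35 genes took 0.613% of its UMIs in the library labelled Otud1-/-, with Hk3 at 105 CPM (93.6 to 118) and Pfkfb3 at 126 CPM (113 to 140).

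**Figure D5:**
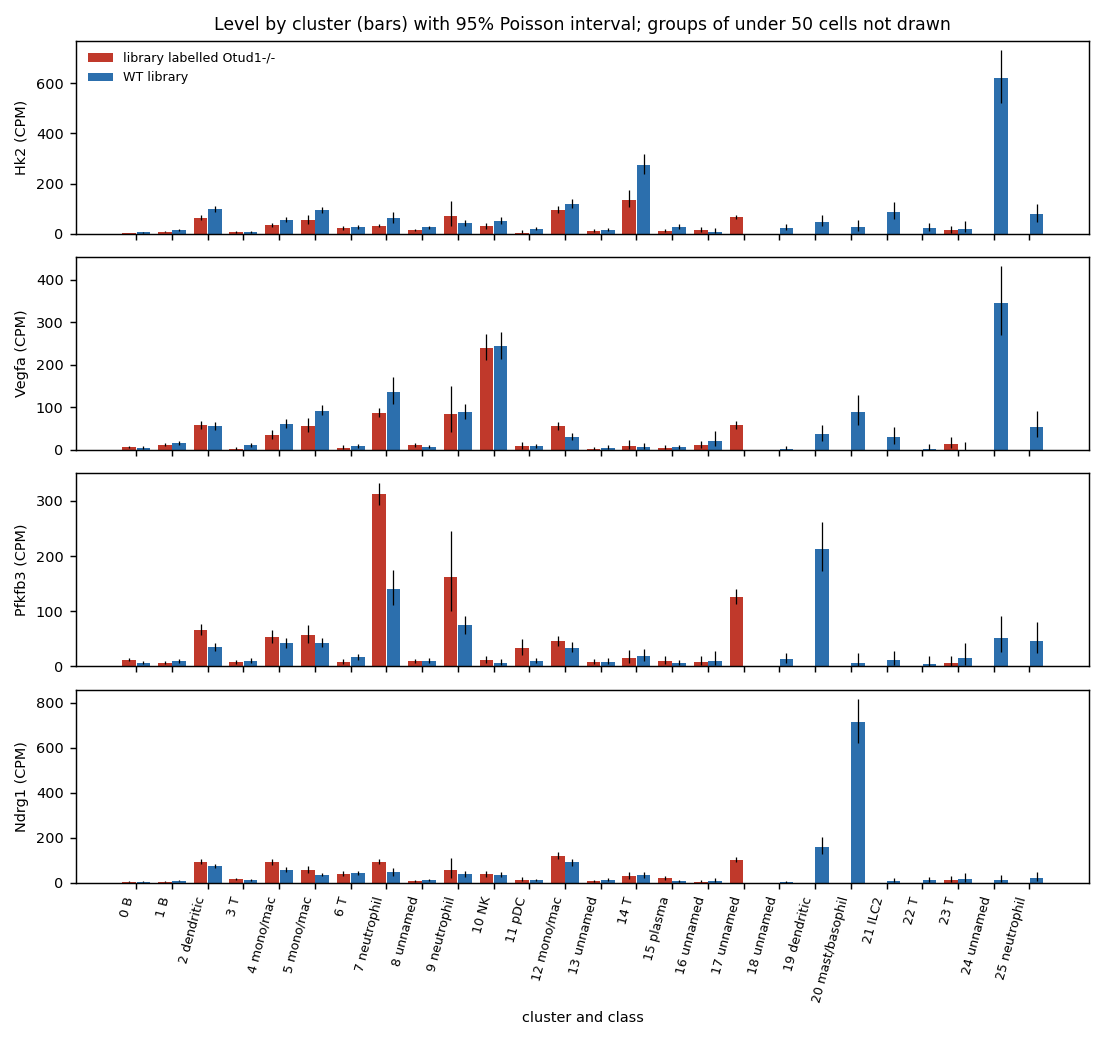
Level in CPM of Hk2, Vegfa, Pfkfb3 and Ndrg1 (panels from the top) in each cluster with at least 50 cells of a library, red for the library labelled Otud1-/- and blue to its right for the WT library, with 95% Poisson intervals. Hk2 peaks in cluster 24 and then cluster 14, Vegfa in clusters 24 and 10, Pfkfb3 in clusters 7 and 19, and Ndrg1 in cluster 20, the mast cells/basophils.

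Genes next to the route were read in neutrophils from lists drawn up around it. Their counts stand against 17.5% higher and 33.3% lower over all genes compared in neutrophils. Of 15 other oxygen sensing genes, 6 were compared, 1 was higher and 2 lower, with a median log2 ratio of -0.36. Cited2, which competes with HIF for its coactivator, was at 0.71, the hydroxylase Egln2 at -1.01 and the ubiquitin ligase subunit Rbx1 at -0.82. Of 15 compared among 36 other hypoxia targets, 3 were higher and 3 lower, with a median of 0.15. They included the membrane-binding protein gene Anxa2 (0.96) and the lipid droplet gene Plin2 (0.86), and also Rora (-3.52), which was marked as possible free RNA of another class. Of 6 compared pentose phosphate genes 2 were higher, Taldo1 (0.90) among them, and 1 was lower, Pgls (-1.21). Of 7 compared glycogen genes 3 were higher, with the phosphatase subunit genes Ppp1r3d (1.29) and Ppp1r3b (1.08), and 1 lower, for a median of 0.39. Of 2 compared other glycolytic isoforms and transporters 1 was higher, Slc2a6 (0.62), and of 4 genes of pyruvate entry 0 were higher and 1 lower.

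The 12 compared genes of the tricarboxylic acid cycle, which burns pyruvate in mitochondria, had 0 higher and 8 lower, with a median of -0.78 against -0.17 over all genes, of which 33.3% were lower. Idh3b (-1.61), Mdh1 (-2.68) and Suclg1 (-2.29) were the furthest from parity, and the last 2 had levels below 10% of another class in at least 1 library. In cluster 7, where B cell marker RNA was closer between the libraries, 6 of these genes were compared, 0 passed in either direction (background 6.71% higher and 12.1% lower) and the median was -0.06. Cluster 7 also had 0 higher genes in each of the other lists. Lower there were 0 of 5 compared other oxygen sensing genes, 2 of 13 other hypoxia targets, 0 of 6 pentose phosphate genes and 1 of 7 glycogen genes. Of 2 compared other glycolytic isoforms 1 was lower, and so was 1 of 4 genes of pyruvate entry. Free RNA and cluster makeup moved with these list values, and their part was not tested.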

How the data were processed

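Gingival immune cells were measured by droplet single-cell RNA sequencing in 2 libraries, 1 per genotype. The deposited matrices hold UMI counts per gene and barcode, aligned to mm10 per the submitters' processing notes, which name Cell Ranger 5.0.0 and Seurat 3.2.3, while a file header names Cell Ranger 6.0.1. Counts were used as deposited, and 0 columns of per-sample values were left out. Barcodes under 200 genes or over 15% mitochondrial UMIs were dropped, and the mitochondrial limit removed 13.2% of barcodes in the library labelled Otud1-/- and 3.52% in the WT library. Doublets scored by simulation were removed at 0.8% per 1000 barcodes, 450 in the library labelled Otud1-/- and 1355 in the WT library. Cells were clustered without integration (2000 variable genes, with the 35 genes, listed pathway genes, Otud1, sex, immunoglobulin, T cell receptor, ribosomal and mitochondrial genes left out; 30 components; 20 neighbours; leidenalg 0.10.2 at resolution 1) into 28 clusters, of which 12 classes were named. A name needed at least 3 markers of the class among the cluster's top 50 genes, and clusters without that stayed unnamed. Other names might follow from other markers.

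UMIs were summed per class and library and divided by the class total to give CPM. Ratios are log2 of CPM plus 0.5, with exact binomial counting intervals, and shares have Clopper-Pearson intervals. Genes whose 2 libraries averaged 20 CPM or more in a class were compared there, with calls at 1.5-fold. Genes below 10% of their level in another class of the same library were marked as possible free RNA. TMM factors came from edgeR 4.0.16. Near-identical copies can split reads: the second Aldoa row was summed with the first, and Eno1b had 163 UMIs in the library labelled Otud1-/- and 106 in the WT library. Scripts were tested on simulated data. The genes, lists and rules were chosen with earlier results of these data known. Named in neutrophils were all genes at the level minimum, elsewhere the 3 highest and 3 lowest ratios past 1.5-fold, and in each list the 3 largest ratios; other genes and clusters were named after their values were seen. 17 alternatives were planned and 4 were added after seeing the data.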

Additional observations from a re-analysis of the deposited data

Results flagged for a closer look

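Vegfa and Slc2a1 lay past 1.5-fold in opposite directions in different clusters, and the difference between clusters was not tested, since each genotype had 1 library. Vegfa had log2 ratios, library labelled Otud1-/- over WT library, of -0.77 in cluster 4 and -0.70 in cluster 5 (both monocyte/macrophage) and -0.64 in neutrophil cluster 7, against 0.88 in monocyte/macrophage cluster 12. Slc2a1 had a log2 ratio of -0.61 in cluster 5 and 2.22 in T cell cluster 23, where 88 cells labelled Otud1-/- and 50 WT cells were compared.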

How the results depend on the processing

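No paired analysis was possible because each genotype had 1 library, and for the same reason no replicate could be left out. Over 21 alternative settings, 443 of 571 recomputed values stayed close to the reported ones, 121 moved and 7 were counted as reversed. The 7 are not all sign changes. They leave out the neutrophil ratios of Pgam1, Tpi1, Ldha, Vegfa and Higd1a, which became positive with either set of scaling factors. The cause of these moves was not tested. In neutrophils, TMM factors gave 20 genes higher, 0 lower, a median log2 ratio of 0.91 and 2.35 for Pfkfb3, and median-of-ratios factors 22, 0, 1.0 and 2.44, with Hk2 at 0.050; in dendritic cells the same factors shifted all ratios by 0.17 and 0.15, and in B cells by 0.12 and 0.11. The neutrophil count of lower genes was 2 without ribosomal, mitochondrial and haemoglobin UMIs, 3 with no level filter, 0 at 50 CPM and 100 UMIs, 0 at 5% mitochondrial UMIs, 3 in cells thinned to 1000 UMIs, 0 in cells with Y-linked and no Xist UMIs and 2 in cells of 2000 to 5000 UMIs. In the same order, the share of all neutrophil genes lower was 42.7%, 51.0%, 23.3%, 29.2%, 37.5%, 30.7% and 36.1%. Each setting compared 26 genes of the set, except 34 with no level filter, 17 at 50 CPM, 25 thinned and 24 in Y-linked cells. Cluster 7 alone gave 5 higher, 2 lower and 1.15 for Pfkfb3, cluster 9 gave 1.12 for Pfkfb3, 0.71 for Hk2 and -0.043 for Hk3, and keeping doublets gave 1.49 for Pfkfb3. In monocytes/macrophages the count of higher genes was 5 at 5% and 14 at 25% mitochondrial UMIs (median 0.72), 16 at resolution 0.5 (median 0.76), 2 in cluster 4 and 3 in cluster 5; the count of lower genes was 1 at resolution 2, 1 thinned, 1 in cells of 2000 to 5000 UMIs, and 3 each in clusters 4 and 5. In those depth-matched cells Eno1 was at -0.16 (-0.91 to 0.51). The share of all monocyte/macrophage genes higher was 3.78% at 5% and 6.00% at 25% mitochondrial UMIs, and 6.17% at resolution 0.5. The share lower was 3.53% at resolution 2, 11.3% thinned and 13.2% depth-matched. Over the other 5 classes, the 11 higher and 3 lower gene and class pairs became 19 higher with either set of factors and at resolution 0.5, 17 with doublets kept and at 25% mitochondrial UMIs, and 18 when thinned, in Y-linked cells or depth-matched; lower pairs were 18 with no level filter, 1 at 50 CPM, 6 thinned, 5 in Y-linked cells and 12 depth-matched. The share over all genes moved too: of all gene and class pairs, 2.68% were higher and 5.22% lower as reported, against 4.39% and 3.85% with TMM, 8.66% and 11.3% thinned, 8.73% and 18.0% with no level filter, and 15.5% and 11.3% depth-matched. The share higher was 4.26% with median of ratios, 3.19% at resolution 0.5, 3.02% with doublets kept, 3.43% at 25% mitochondrial UMIs and 5.76% in Y-linked cells. The share lower was 3.36% at 50 CPM and 8.25% in Y-linked cells. Hk2 in NK cells was at 0.062 in Y-linked cells and 0.27 (-1.07 to 1.68) depth-matched, and in dendritic cells at 0.48 (-0.62 to 1.43) depth-matched. In cells with Y-linked and no Xist UMIs, 11 of 24 neutrophil genes of the set were higher, against 15.3% of all neutrophil genes. In monocytes/macrophages 9 of 23 were higher in that setting, against 4.36% of all genes. The part of sex was not tested further. Genotype, library and depth cannot be told apart here, nor can sex over all kept cells, and genes under 20 CPM are limited by their counts.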

Other observations

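Some groups outside the compared classes had high levels of single genes of the set. Gapdh had 1749 CPM (1698 to 1801) in cells labelled Otud1-/- and 1274 CPM (1233 to 1317) in WT cells of cluster 8, an unnamed cluster of dividing cells. Ero1l, an oxidase of the endoplasmic reticulum, had 196 CPM (149 to 254) in WT mast cells/basophils, and 128 CPM (98.4 to 164) in cells labelled Otud1-/- and 101 CPM (78.8 to 128) in WT cells of T cell cluster 14. Ldhb, the dehydrogenase subunit that favours pyruvate, had 43.7 CPM (29.3 to 62.8) in plasmacytoid dendritic cells labelled Otud1-/- and 37.6 CPM (28.7 to 48.4) in WT plasmacytoid dendritic cells, where neutrophils had 5 UMIs in the library labelled Otud1-/- and 13 in the WT library. Ldha had 531 CPM (459 to 611) in the 134 WT group 2 innate lymphoid cells. The isomerase gene Gpi1 had 293 CPM (231 to 367) in the 96 WT cells of neutrophil cluster 25, against 175 CPM (143 to 213) in WT cells of cluster 7 and 150 CPM in WT cells of cluster 9.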
